A study of Mus musculus with 9 samples.

Results

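The hippocampus is built from a few types of excitatory principal neuron, each packed into its own layer, and each layer is known by genes that it transcribes at higher levels than its neighbours. A list of 43 such genes was examined in hippocampal RNA of 9 mice, and 39 of them matched, by gene name, a row of the count table of 54532 genes. Rfx3os, Drd2os, Glul2 and Lyd matched no row under those names and were not analysed here. All 39 genes found passed the filter on low counts and were tested, with between 28 and 21608 counts per gene and library. They were grouped from general knowledge into 9 CA1 genes, 6 CA2 genes, 5 CA3 genes, 13 dentate granule cell genes, 2 mossy cell genes and 4 genes that were assigned to no single layer.

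The mice were N4 Ube3am-/p+ animals, a model of Angelman syndrome in which the maternal copy of Ube3a is deleted and which were backcrossed for 4 generations onto 129Sv/Ev. Both groups carried this deletion, and no wild-type or uninjected mice are compared here. At postnatal day 21, 5 mice received an intracerebroventricular injection of 0.5 nmol Ant-134, a cholesterol-tagged locked nucleic acid antimiR against miR-134, and 4 mice received 0.5 nmol of a scrambled antimiR (Scr). Every mouse had sound-induced seizure tests at postnatal days 22, 24 and 26, and the hippocampus on the injected side was taken 24 h after the last one. In this protocol the paper reports less severe seizures with Ant-134 and a tendency toward better survival. The antimiR and the seizure history that goes with it cannot be told apart here. Mice of both sexes were used, and the number of each sex per group is not given in the sources used here. Each library came from the homogenate of 1 hippocampus of 1 mouse, so the spread within a group is the spread between mice. The question was whether 0.5 nmol Ant-134 left the genes of the principal neuron layers at other levels than Scr.

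In the trisynaptic circuit, granule cells of the dentate gyrus send mossy fibres to mossy cells of the hilus and to CA3 pyramidal neurons, which project to CA1. CA2 lies between CA3 and CA1 and is known for its role in social memory and for its resistance to seizure damage. The granule cells hold Prox1 and calbindin, the CA1 pyramidal neurons hold Wfs1, and the CA2 neurons hold Rgs14, Amigo2 and Pcp4. Several of these genes are also transcribed outside the principal neurons, as Calb1 is in interneurons and Pcp4 in thalamus and striatum. In homogenate, fewer cells of a type and less RNA per cell cannot be told apart.

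miR-134 is a microRNA that binds messenger RNAs through its seed, bases 2 to 8, and lowers their level or translation. Its sequence, from RefSeq on GRCm38.p6 at chr12:109734145-109734166 on the plus strand, is shown because it is the target of Ant-134 and fixes the sites counted next, with the seed in capitals.
mmu-miR-134-5p: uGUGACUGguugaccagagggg
A site was a match to CAGTCAC (pairing with bases 2 to 8) or to AGTCACA (pairing with bases 2 to 7, followed by A), on the transcribed strand of the longest annotated 3' UTR. An 8-base site, CAGTCACA, holds both of these overlapping motifs. By this definition 9 of the 39 genes (23.1%) held a site, against 2973 of 15279 tested genes with an annotated 3' UTR (19.5%). These were Nov and Gpr161 of CA1, Cpne4 and Iyd of CA3, Prox1, Trpc6, Calb1 and Sema5a of the dentate granule cells, and Ajap1 of the mossy cells. The 8-base form was present in 2 of the 39 (5.13%), against 4.44% of the tested genes. The sites of 5 genes are shown with their surroundings, the site in capitals. Those of Cpne4 and Sema5a are the 8-base ones, and Trpc6 alone had a pair. Those of Prox1 and Calb1 are shown because granule cells hold both, although Calb1 is also transcribed in other cells. Cpne4 lies on chromosome 9, Sema5a on 15, Trpc6 on 9, Prox1 on 1 (minus strand) and Calb1 on 4, the others on the plus strand, and the windows on GRCm38 are chr9:105034480-105034507, chr15:32690541-32690568, chr9:8627016-8627042, chr9:8628166-8628192, chr1:190121239-190121265 and chr4:15906694-15906720 in the order printed.
Cpne4: cagaaaaaaaCAGTCACAaatgtttaaa
Sema5a: ttcctccttgCAGTCACActggagtggc
Trpc6, first site: aagggaatgaAGTCACAgtatttcaga
Trpc6, second site: tacactcataCAGTCACtcacacacat
Prox1: agctgttctgAGTCACAtgctaatcag
Calb1: atcctataatAGTCACAgtttttctga
None of the 3 genes that passed the unadjusted threshold described further on, Ociad2, Dsp and Pcp4, held a site in this window. The median log2 fold change of the 9 genes with a site was 0.055, and that of the 30 genes without one was 0.087. With 8-base sites alone the order was the opposite, 0.10 for the 2 genes with a site and 0.061 for the other 37. A match is a description of sequence and not evidence of binding. Mature miR-134 itself was not measured in these poly-A-selected libraries.

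Levels between genes were compared in FPKM, the authors' counts scaled to gene length and library size, averaged over the 9 libraries. The most abundant were Cpne7, with a mean of 87.2 FPKM and a range over libraries of 66.2 to 105, and Neurod6, with 83.7 and a range of 71.7 to 99.3. These ranges overlapped, so the order of this pair is within the spread between mice. Nov followed at 70.3 FPKM (56.4 to 89.0), and its range overlapped those of both. Mpped1 (45.5 FPKM), Wfs1 (44.1), Necab2 (41.3), Bhlhe22 (38.3), Fibcd1 (35.6), Bok (34.3) and Ociad2 (31.4) formed a run in which each range overlapped the next. At the low end were Tdo2 at 1.10 FPKM (0.866 to 1.36), Map3k15 at 0.986 (0.776 to 1.41) and Iyd at 0.730 (0.556 to 1.06), again with overlapping ranges. The median FPKM was 24.2 for the CA1 genes, 13.6 for CA2, 3.13 for CA3 and 4.84 for the dentate granule genes.

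**Figure D1:**
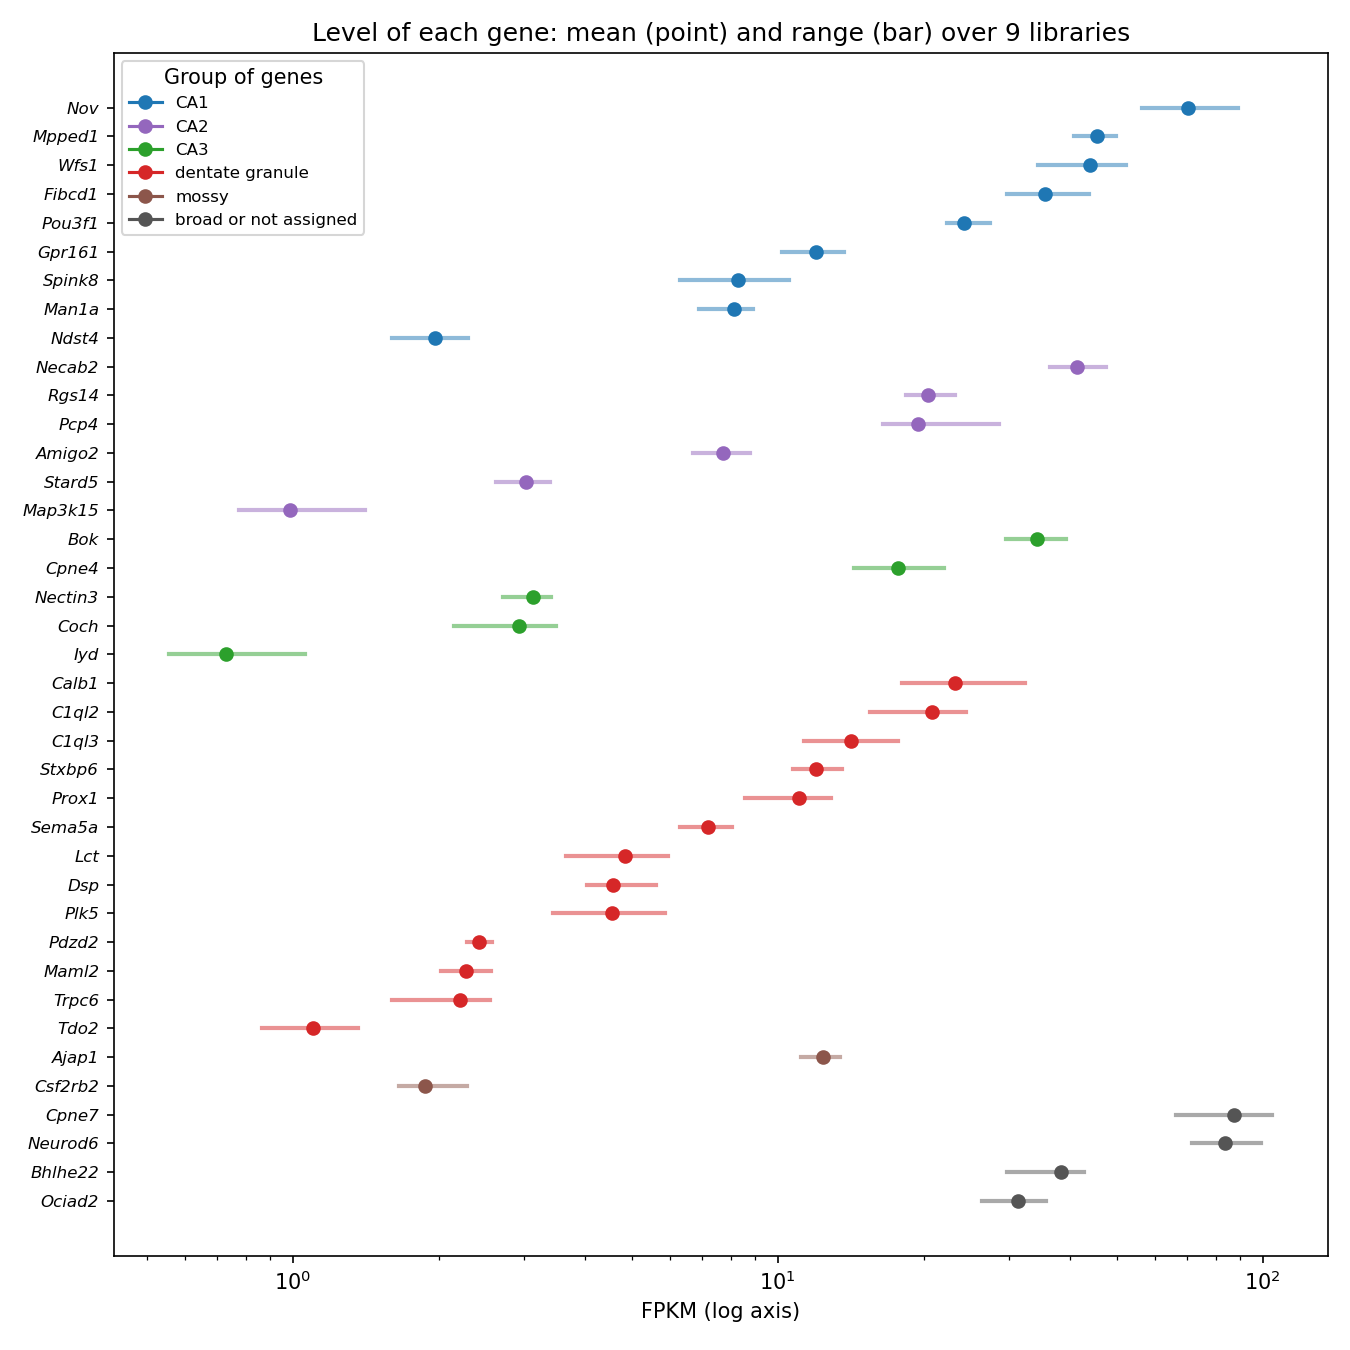
Mean level (point) and range (bar) of each of the 39 genes over all 9 libraries, in FPKM on a log axis, coloured by group of genes. Each of CA1, CA2, CA3 and the dentate granule cells is represented by genes from a few FPKM or less to over 20 FPKM, so every layer was measured.

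The label of the tissue was checked against marker genes. The 7 neuronal markers summed to between 6739.7 and 7331 CPM in the Ant-134 libraries and 6592 and 6843 CPM in the Scr libraries. Total counts per library ran from 28583298 to 41978113, with a biological coefficient of variation of 11.9% among mice. Markers of other tissues varied between libraries. The 5 choroid plexus genes summed to between 66.3 and 2558 CPM in the Ant-134 group and 78.0 and 2015 CPM in the Scr group, highest in Ant-134 replicate 1 and Scr replicate 3. The 5 thalamus genes together reached 164 CPM in Ant-134 replicate 3, where the other libraries had 97.6 to 126 CPM. The 6 activity-regulated genes reached 527 CPM in Ant-134 replicate 5, where the others had 312 to 399.7 CPM, and the sum of the 5 oligodendrocyte genes was lowest there, 6794 CPM.

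In Ant-134 mice most of the principal neuron genes were close to their level in Scr mice, and the few that passed the unadjusted threshold were higher with Ant-134. In edgeR's quasi-likelihood test, Ociad2, Dsp and Pcp4 had an unadjusted p below 0.05 and all 3 were higher. This is 7.69% of the 39 against 1.49% of the 19782 genes tested. The list was chosen with earlier results of these data known, so its share is not independent of them. No gene of the list was called lower, against 2.69% of all genes, and 4.18% of all genes were called in either direction. After Benjamini-Hochberg adjustment over all genes tested in edgeR, 0 of the 39 had an adjusted p below 0.05, as was the case for 0% of all genes, and the smallest on the list was 0.648. DESeq2's Wald test, without a filter on low counts, also called 0 of the 39 after adjustment, and at the unadjusted threshold it called 4, Bhlhe22 in addition to those 3, against 2.74% of 37435 genes. The paper had already listed Pcp4 and Bhlhe22 among its upregulated genes of interest from these libraries. Every Ant-134 library lay above every Scr library for 1 gene, Ociad2, which is 2.56% of the 39 against 0.647% of all genes. The reverse held for 0 of the 39, against 0.895% of all genes.

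The fold changes were small. Of the 39 log2 fold changes (positive where Ant-134 was higher), 28 were above 0, or 71.8%, against 51.2% of all genes tested, and 36 lay within 0.2 of 0. Their median was 0.077, with 0.0026 for all genes and 0.032 for the 7 neuronal markers. The genes of a layer share cells and libraries and are not independent observations. Standard errors ran from 0.050 to 0.25 with a median of 0.092, so the data set a limit to the size of most changes but do not show that levels were equal. The medians by layer were 0.10 for CA1, 0.055 for CA2, 0.056 for CA3, 0.077 for the dentate granule genes, 0.071 for the mossy cell genes and 0.16 for the unassigned genes. Leaving out 1 library at a time moved them widely: 0.033 (without Scr replicate 2) to 0.13 (without Scr replicate 4) for CA1, -0.0090 (without Ant-134 replicate 3) to 0.077 (without Ant-134 replicate 4) for CA2, 0.0068 (without Scr replicate 3) to 0.11 (without Scr replicate 2) for CA3, 0.016 (without Scr replicate 3) to 0.15 (without Scr replicate 2) for the dentate granule genes, 0.030 (without Ant-134 replicate 5) to 0.10 (without Ant-134 replicate 1) for the mossy cell genes and 0.10 (without Scr replicate 3) to 0.20 (without Scr replicate 1) for the unassigned genes. With the activity-regulated covariate, added after seeing the data, the median was 0.0047 for the dentate granule genes and 0.025 for the mossy cell genes. The median of CA2 thus changed sign without Ant-134 replicate 3, and the median of all 39 genes ran from 0.042 (without Scr replicate 3) to 0.10 (without Scr replicate 2). No test was made of these medians or of their differences.

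**Figure D2:**
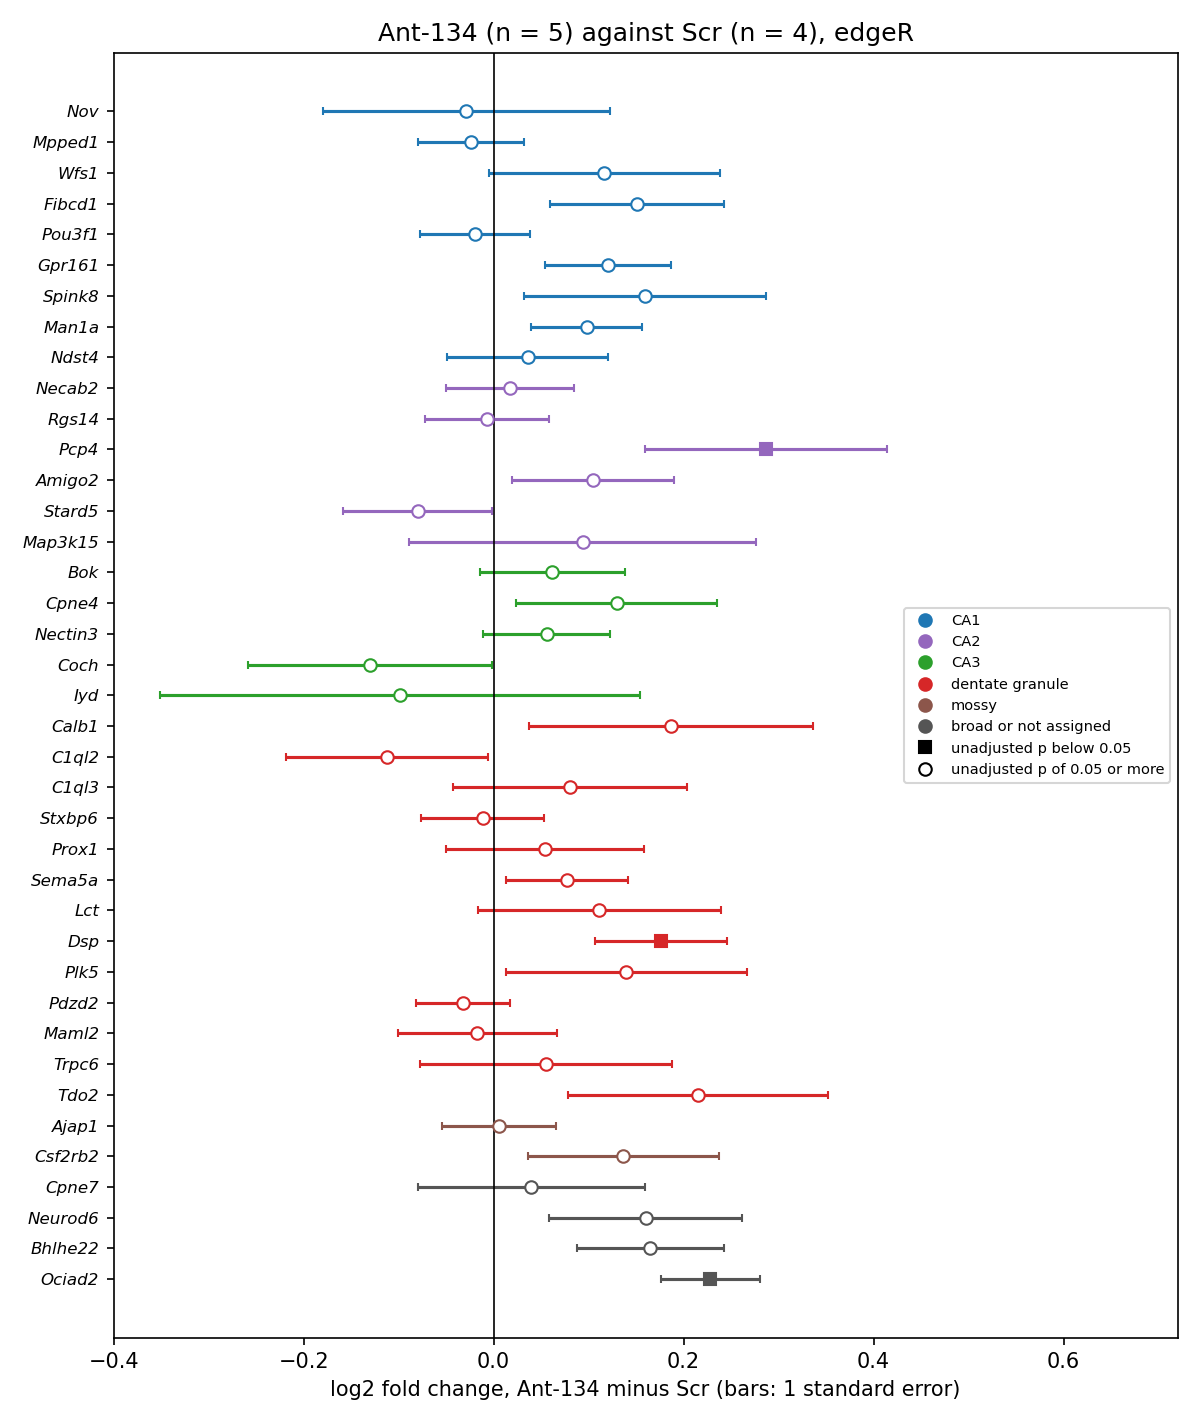
Log2 fold change of each gene between Ant-134 (n = 5) and Scr (n = 4) mice with 1 standard error, coloured by group of genes. Filled squares mark Ociad2, Dsp and Pcp4, the 3 genes with an unadjusted p below 0.05 in edgeR, all to the right of 0.

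**Figure D3:**
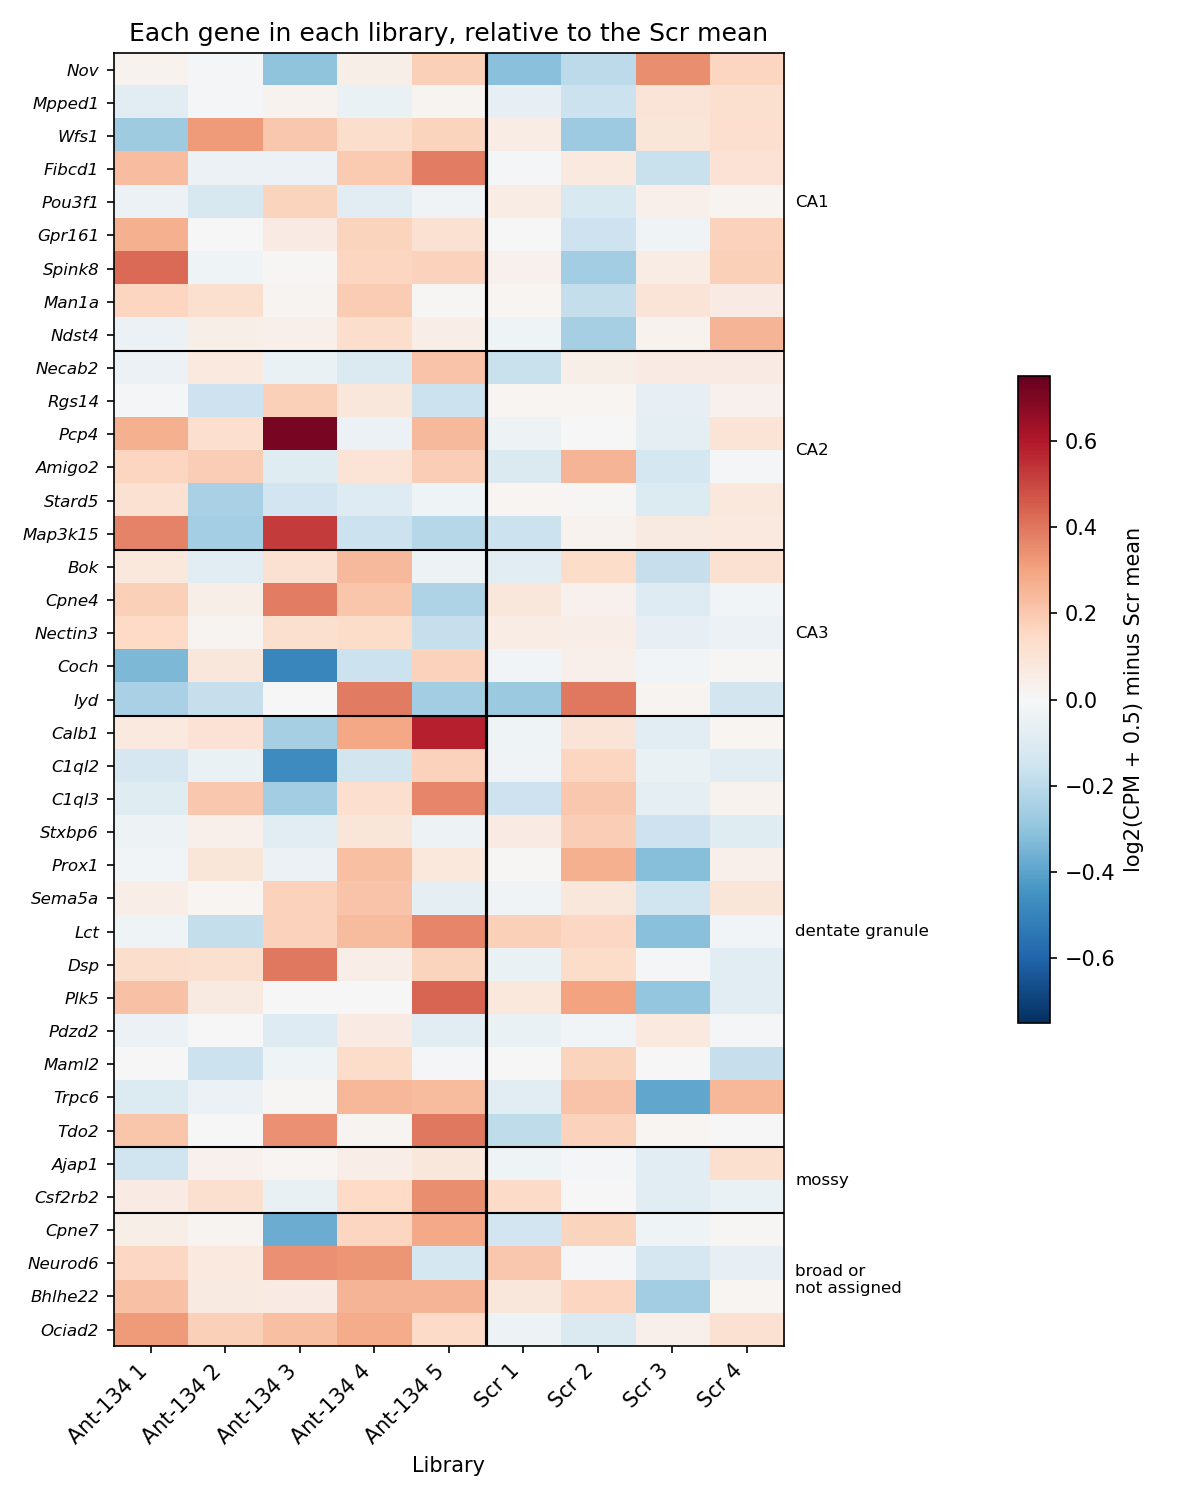
Each gene (row) in each library (column) as log2(CPM + 0.5) minus the mean over the 4 Scr libraries. In Ociad2, the bottom row, every Ant-134 library is above every Scr library. Other rows, such as Dsp, Bhlhe22 and Man1a, are also above the Scr mean in all 5 Ant-134 libraries, but their groups overlap. Some strong colours belong to single libraries, such as Pcp4 in Ant-134 replicate 3 and Calb1 in Ant-134 replicate 5.

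Ociad2 was the gene that separated the groups. It encodes an OCIA-domain protein found in mitochondria and endosomes, lies at chr5:73322199-73341028 on the minus strand, and was not assigned to a layer. It was present at 98.1, 88.8, 92.0, 95.2 and 86.7 CPM in Ant-134 replicates 1 to 5 and 76.6, 72.7, 80.5 and 84.9 CPM in Scr replicates 1 to 4. The lowest Ant-134 library, replicate 5, lay above the highest Scr library, replicate 4, by less than the SD of either group. The Ant-134 group averaged 92.2 ± 4.64 CPM (SD, n = 5) and the Scr group 78.7 ± 5.25 CPM (SD, n = 4). Its log2 fold change of 0.23 (standard error 0.052) gave the smallest p on the list in edgeR, 6.01e-04 before adjustment. The unadjusted p stayed below 0.05 in all 22 alternative analyses that give one, with log2 fold changes between 0.19 and 0.27. The adjusted p over those alternatives ran from 0.0734 to 1.000, so it passed 0.05 in none.

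The other 3 genes assigned to no single layer also had positive fold changes and did not pass the test. Bhlhe22, a basic helix-loop-helix repressor of neuronal identity, had a log2 fold change of 0.17 (standard error 0.078, edgeR unadjusted p = 0.0543), with 126 to 144 CPM in the Ant-134 libraries and 101 to 135 CPM in the Scr libraries. Its lowest value was that of Scr replicate 3, without which the fold change was 0.086 (unadjusted p = 0.172). Its unadjusted p fell below 0.05 without Ant-134 replicate 2 (0.0378), Ant-134 replicate 3 (0.0368) or Scr replicate 2 (0.0153). Neurod6, a transcription factor of excitatory pyramidal neurons, had 0.16 (unadjusted p = 0.147), and its lowest library was Ant-134 replicate 5 at 155 CPM. Without that library its log2 fold change was 0.23 (unadjusted p = 0.0152), without Scr replicate 1 it was 0.23 (unadjusted p = 0.0433), and without Ant-134 replicate 3 it was 0.11 (unadjusted p = 0.290). Cpne7, a calcium-dependent phospholipid-binding copine with, beside Neurod6, the highest mean FPKM of the list, was present at 469, 462, 353, 510.1 and 555 CPM in Ant-134 replicates 1 to 5 and 413, 511, 445 and 459 CPM in Scr replicates 1 to 4. Its groups overlapped over most of their range, with the highest value in Ant-134 replicate 5 and the lowest in Ant-134 replicate 3. The log2 fold change was 0.040 (2 standard errors on either side, -0.20 to 0.28), and the two-sided exact permutation test gave p = 0.833. It was -0.027 without Ant-134 replicate 5 and -0.0095 without Scr replicate 1, so its sign is not determined.

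**Figure D4:**
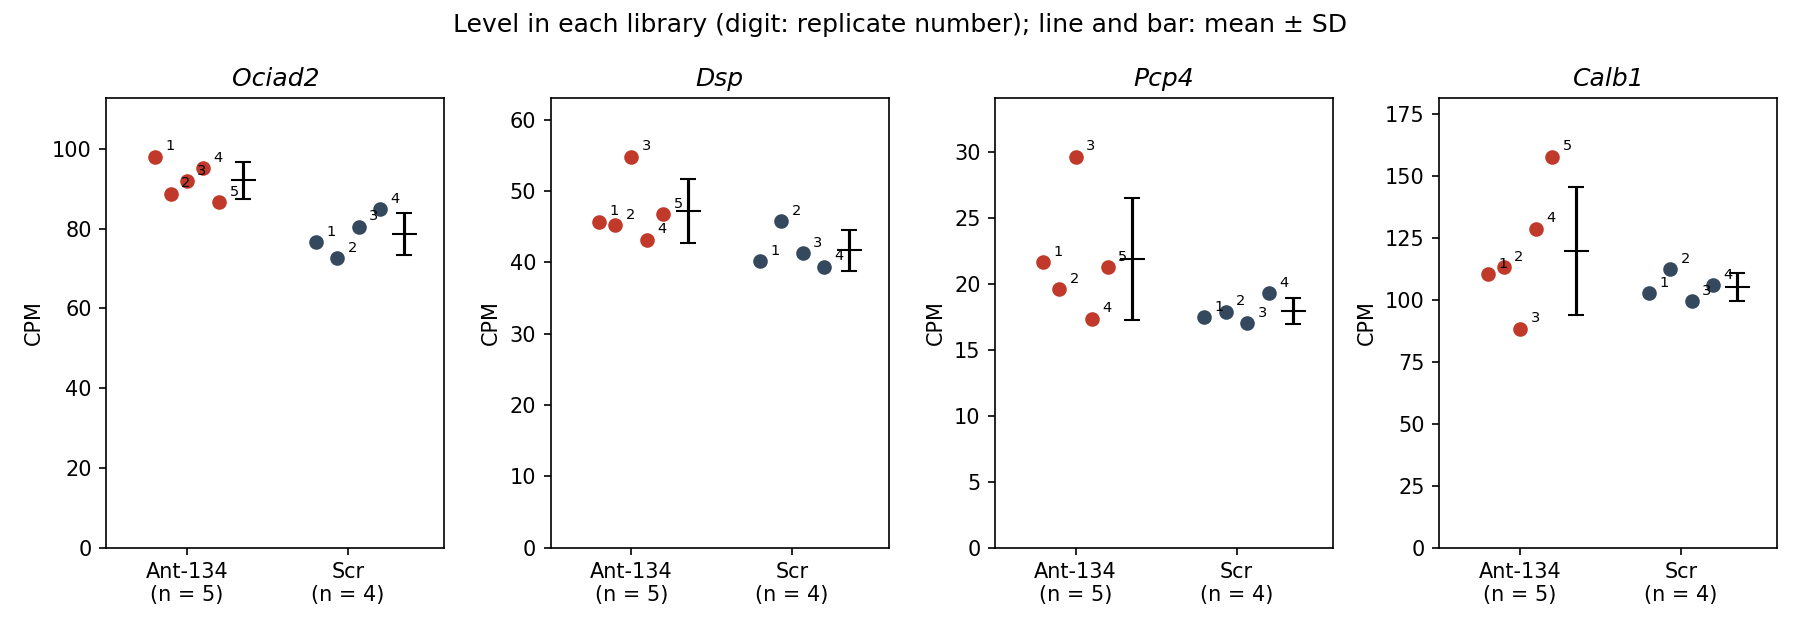
CPM of Ociad2, Dsp, Pcp4 and Calb1 in each library, with the mean ± SD of each group (Ant-134, n = 5, and Scr, n = 4) beside the points and the replicate number at each. The groups are apart for Ociad2, whereas for Dsp and Pcp4 the highest point is Ant-134 replicate 3 and for Calb1 the points of the Ant-134 group lie on both sides of the Scr group.

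None of the 9 CA1 genes passed the unadjusted threshold, and 6 of them had positive fold changes. Nov, a secreted protein of the matrix and the most abundant CA1 gene, also varied most between mice among them. It was present at 206, 201, 164, 208 and 229 CPM in Ant-134 replicates 1 to 5 and 163, 176, 258 and 226 CPM in Scr replicates 1 to 4. Its highest and lowest values were both in the Scr group, in replicates 3 and 1, and the groups overlapped fully. The log2 fold change was -0.029 (2 standard errors on either side, -0.33 to 0.27, two-sided exact permutation p = 0.968), and it was positive without Ant-134 replicate 3 (0.036), Scr replicate 3 (0.10) or Scr replicate 4 (0.020). Spink8, a Kazal-type protease inhibitor, had the largest CA1 fold change at 0.16 (standard error 0.13, unadjusted p = 0.230), and it was 0.072 without Scr replicate 2 and 0.23 without Scr replicate 4. Fibcd1, a receptor for acetylated sugars, had 0.15 (standard error 0.092, unadjusted p = 0.130) and was below 0.05 without Ant-134 replicate 2 (0.0411) or Ant-134 replicate 3 (0.0459), while without Ant-134 replicate 5 the fold change fell to 0.087 (unadjusted p = 0.280). Gpr161, a receptor of the primary cilium that restrains Hedgehog signalling, had 0.12 (standard error 0.066, unadjusted p = 0.0900) and was below 0.05 without Ant-134 replicate 2 (0.0426) or Scr replicate 4 (0.0109), while without Scr replicate 2 the fold change fell to 0.071 (unadjusted p = 0.289). Wfs1, the wolframin of the endoplasmic reticulum, ran from 132 CPM in Scr replicate 2 to 199.7 CPM in Ant-134 replicate 2, with a fold change of 0.12 (unadjusted p = 0.364) that reached 0.20 (unadjusted p = 0.0264) without Ant-134 replicate 1 and was 0.033 (unadjusted p = 0.771) without Scr replicate 2. Man1a, a Golgi mannosidase, had 0.10, or 0.041 without Scr replicate 2. With the activity-regulated covariate, added after seeing the data, Man1a had 0.14 (edgeR unadjusted p = 0.0276). Ndst4, a heparan sulphate-modifying enzyme, had 0.036. Mpped1, a metallophosphoesterase-domain protein, and Pou3f1, a POU-domain transcription factor, differed least between the groups, with fold changes of -0.024 (2 standard errors on either side, -0.14 to 0.088) and -0.019 (-0.14 to 0.10). Scr replicate 2 held the lowest value of the 9 libraries for 6 of the 9 CA1 genes.

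Among the 6 CA2 genes Pcp4 passed the unadjusted threshold. Pcp4 encodes a small peptide that binds calmodulin, and lies at chr16:96467606-96525793 on the plus strand. It was present at 21.7, 19.6, 29.7, 17.4 and 21.3 CPM in Ant-134 replicates 1 to 5 and 17.5, 17.9, 17.1 and 19.3 CPM in Scr replicates 1 to 4. The groups overlapped, since Ant-134 replicate 4 lay below 3 of the 4 Scr libraries, and Ant-134 replicate 3 stood well above all others. The Ant-134 group averaged 21.9 ± 4.65 CPM (SD, n = 5) and the Scr group 18.0 ± 0.982 CPM (SD, n = 4). The log2 fold change was 0.29 (standard error 0.13, edgeR unadjusted p = 0.0440, adjusted p = 0.998), and the two-sided exact permutation test gave p = 0.0952. Ant-134 replicate 3, the highest Pcp4 library, was also the highest for the sum of the 5 thalamus genes and for each of them. The Pcp4 fold change was 0.15 (unadjusted p = 0.0733) without that library, and 0.25 (unadjusted p = 0.0143) with the summed thalamus level as a covariate, an analysis chosen after seeing the data. The unadjusted p also rose above 0.05 without Ant-134 replicate 1 (0.0658), Ant-134 replicate 5 (0.0637), Scr replicate 1 (0.0951), Scr replicate 2 (0.0816) or Scr replicate 3 (0.103). It was 0.0687 with limma on log2(FPKM + 1), 0.0506 in edgeR with no filter, and 0.0836 with the activity-regulated covariate. The exons of Pcp4 share 23.7% of their bases with Igsf5 on the same strand, and how reads there were counted is uncertain.

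The other 5 CA2 genes did not pass the test. Necab2, an EF-hand calcium-binding protein and the most abundant CA2 gene, was present at 84.2, 91.1, 83.8, 80.3 and 100.5 CPM in Ant-134 replicates 1 to 5 and 77.1, 89.5, 90.5 and 90.6 CPM in Scr replicates 1 to 4. Scr replicate 1 was the lowest of the 9 and Ant-134 replicate 5 the highest, while the remaining Scr libraries lay within the range of the Ant-134 group. Its log2 fold change was 0.017 (2 standard errors on either side, -0.12 to 0.15, two-sided exact permutation p = 0.833), and the sign was negative without Ant-134 replicate 5 (-0.034), without Scr replicate 1 (-0.039) and relative to the neuronal markers (-0.015). Map3k15, a stress-pathway kinase, was the CA2 gene that varied most, at 5.52, 3.40, 6.19, 3.67 and 3.51 CPM in Ant-134 replicates 1 to 5 and 3.67, 4.23, 4.37 and 4.39 CPM in Scr replicates 1 to 4. Ant-134 replicates 1 and 3 were above every Scr library and the other 3 Ant-134 libraries were close to or below the lowest Scr value of 3.67 CPM. Its fold change was 0.094 (-0.27 to 0.46, two-sided exact permutation p = 0.746) and -0.052 without Ant-134 replicate 3. Its exons share 13.9% of their bases with Pdha1 on the opposite strand, and whether the counting used strand is not stated in the sources used here. Rgs14, which limits synaptic plasticity in CA2, had a fold change of -0.0071 (-0.14 to 0.12). Amigo2, an adhesion protein, had 0.10 (unadjusted p = 0.239), and 0.20 (unadjusted p = 0.0184) without Scr replicate 2 but 0.060 (unadjusted p = 0.515) without Scr replicate 3. Stard5, a lipid-transfer protein, had -0.080 (-0.24 to 0.077), and its exons share 22% of their bases with Il16 on the opposite strand.

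None of the 5 CA3 genes passed the threshold, and 3 had positive and 2 negative fold changes. Bok, a member of the protein family that governs apoptosis and the most abundant CA3 gene, was present at 65.5, 58.7, 67.1, 73.3 and 60.5 CPM in Ant-134 replicates 1 to 5 and 58.6, 68.3, 55.0 and 67.1 CPM in Scr replicates 1 to 4. Both groups covered nearly the same range, with the highest value in Ant-134 replicate 4 and the lowest in Scr replicate 3. Its log2 fold change was 0.061 (2 standard errors on either side, -0.091 to 0.21, two-sided exact permutation p = 0.508), and 0.0068 without Scr replicate 3. Iyd, an iodotyrosine deiodinase, had the fewest counts of the list, at 0.945, 1.01, 1.21, 1.74 and 0.927 CPM in Ant-134 replicates 1 to 5 and 0.909, 1.75, 1.23 and 1.05 CPM in Scr replicates 1 to 4, from 28 to 74 counts per library. Ant-134 replicate 4 and Scr replicate 2 were its high libraries, 1 in each group. Its fold change was -0.10 (-0.60 to 0.41, two-sided exact permutation p = 0.706), and 0.12 without Scr replicate 2. Cpne4, a copine with an 8-base miR-134 site, had 0.13 (standard error 0.11, unadjusted p = 0.250). It ranged from 79.6 CPM in Ant-134 replicate 5 to 122 CPM in Ant-134 replicate 3, and leaving out the former gave a fold change of 0.21 (unadjusted p = 0.00763) and leaving out the latter 0.057 (unadjusted p = 0.520). Nectin3, a cell adhesion protein, had 0.056 (-0.078 to 0.19). Coch, the extracellular protein cochlin, had -0.13 (-0.39 to 0.13), with 9.18 to 9.58 CPM in the Scr group and 6.51 to 10.6 CPM in the Ant-134 group, on both sides of it. Leaving out Ant-134 replicate 5 gave it -0.22, and leaving out replicate 3 of the same group -0.050.

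Of the 13 dentate granule genes, 1 passed the unadjusted threshold. This was Dsp, desmoplakin, a protein of desmosomal junctions that marks granule cells in the hippocampus, at chr13:38151294-38198577 on the plus strand. It was present at 45.7, 45.2, 54.8, 43.2 and 46.8 CPM in Ant-134 replicates 1 to 5 and 40.2, 45.8, 41.4 and 39.4 CPM in Scr replicates 1 to 4. The groups overlapped through Scr replicate 2, which lay above 3 of the 5 Ant-134 libraries, and the highest value was again Ant-134 replicate 3. The Ant-134 group averaged 47.2 ± 4.49 CPM (SD, n = 5) and the Scr group 41.7 ± 2.87 CPM (SD, n = 4). The log2 fold change was 0.18 (standard error 0.069, edgeR unadjusted p = 0.0230, adjusted p = 0.998), and the two-sided exact permutation test gave p = 0.0635. It was 0.12 (unadjusted p = 0.0702) without Ant-134 replicate 3, 0.16 (unadjusted p = 0.0700) without Scr replicate 1 and 0.15 (unadjusted p = 0.0706) without Scr replicate 4. With the summed thalamus level as a covariate, added after seeing the data, it was 0.16 (unadjusted p = 0.0186).

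Calb1, calbindin, the calcium buffer of granule cells and of some CA1 neurons and interneurons, was the most abundant and most variable dentate gene, at 111, 113, 88.4, 129 and 158 CPM in Ant-134 replicates 1 to 5 and 103, 113, 99.6 and 106 CPM in Scr replicates 1 to 4. Ant-134 replicate 5 was the highest of the 9 libraries and Ant-134 replicate 3 the lowest, with the Scr group in a narrow band between them. The Ant-134 group averaged 119.8 ± 25.7 CPM (SD, n = 5) and the Scr group 105 ± 5.58 CPM (SD, n = 4). The log2 fold change was 0.19 (2 standard errors on either side, -0.11 to 0.49, two-sided exact permutation p = 0.373). It fell to 0.067 (unadjusted p = 0.518) without Ant-134 replicate 5, the library with the highest activity-regulated genes, and was 0.28 (unadjusted p = 0.0313) without Ant-134 replicate 3. With the summed activity-regulated level as a covariate, added after seeing the data, it was 0.069 (unadjusted p = 0.588), and with that of the thalamus genes 0.19 (unadjusted p = 0.0567).

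The remaining 11 dentate genes did not pass the test. Prox1, the homeobox factor that sets granule cell identity, had a log2 fold change of 0.054 (-0.15 to 0.26) and ranged from 72.6 CPM in Scr replicate 3 to 109 CPM in Scr replicate 2. Its widest difference thus lay within the Scr group, and without Scr replicate 3 the fold change was -0.043. Tdo2, tryptophan dioxygenase, had the largest dentate fold change at 0.22 (standard error 0.14, unadjusted p = 0.136), at 4.61 ± 0.631 and 3.96 ± 0.453 CPM (SD) with Ant-134 and Scr. Without Scr replicate 1 it was 0.15 (unadjusted p = 0.336). Plk5, a polo-like kinase, had 0.14, but 0.047 without Scr replicate 3, 0.26 without Scr replicate 2 and 0.0047 with the activity-regulated covariate. Lct, lactase, had 0.11, but 0.016 without Scr replicate 3 (unadjusted p = 0.889) and 0.18 without Ant-134 replicate 2. Sema5a, a semaphorin with an 8-base miR-134 site, had 0.077 (-0.051 to 0.21). The secreted synaptic proteins C1ql2 and C1ql3, which act at mossy fibre synapses, had -0.11 (-0.33 to 0.10) and 0.080 (-0.17 to 0.33), and both were highest in Ant-134 replicate 5 and lowest in Ant-134 replicate 3. The exons of C1ql3 share 61.0% of their bases with Gm37811 on the opposite strand. Without Ant-134 replicate 5 the fold change of C1ql2 was -0.19 (unadjusted p = 0.0481) and that of C1ql3 5.4e-05. Without Ant-134 replicate 3 they were -0.035 (unadjusted p = 0.659) and 0.15. Trpc6, a cation channel, had 0.055, Pdzd2, a PDZ-domain protein, -0.033 (-0.13 to 0.066), Maml2, a Notch coactivator, -0.017, and Stxbp6, which binds SNARE proteins, -0.012. Pdzd2 was the steadiest gene of the list, with an SD of 0.057 on the log2 scale over the 9 libraries, against a median of 0.14 for all genes tested.

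Both mossy cell genes were measured and neither passed the test. Ajap1, a junction-associated membrane protein, was present at 34.3, 38.9, 38.5, 39.4 and 40.4 CPM in Ant-134 replicates 1 to 5 and 37.2, 37.9, 36.0 and 41.4 CPM in Scr replicates 1 to 4, and the groups overlapped over most of their range. Its log2 fold change was 0.0056 (2 standard errors on either side, -0.11 to 0.12, two-sided exact permutation p = 0.913). Csf2rb2, a cytokine receptor subunit, was present at 8.87, 9.25, 8.15, 9.46 and 10.9 CPM in Ant-134 replicates 1 to 5 and 9.40, 8.44, 7.95 and 8.17 CPM in Scr replicates 1 to 4. Ant-134 replicate 5 was the highest, and the remaining Ant-134 libraries lay in or near the range of the Scr group. Its fold change was 0.14 (-0.064 to 0.34, two-sided exact permutation p = 0.190), and it was 0.074 without Ant-134 replicate 5 and 0.069 with the activity-regulated covariate. Csf2rb2 has a closely similar neighbour, Csf2rb, and how reads were divided between them is uncertain.

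The layers were also compared from mouse to mouse. The level of a layer in a library was taken as the mean over its genes of log2(CPM + 0.5), relative to the mean of the 4 Scr libraries. For the dentate granule genes it was 0.018, 0.016, -0.012, 0.12 and 0.20 in Ant-134 replicates 1 to 5 and -0.021, 0.16, -0.13 and -0.0091 in Scr replicates 1 to 4. The spread within Scr, from replicate 3 to replicate 2, was wider than the difference between the group means of 0.068. For the CA1 genes the level was 0.075, 0.028, 0.020, 0.10 and 0.12 in the Ant-134 libraries and -0.028, -0.17, 0.063 and 0.13 in the Scr libraries. Within the Ant-134 group the dentate and CA1 levels had the same order, highest in replicate 5 and lowest in replicate 3. Within the Scr group they did not, and Scr replicate 2, the highest Scr library for the dentate genes, was the lowest of all 9 for the CA1 genes. The dentate level minus the CA1 level was 0.33 in Scr replicate 2 and -0.20 in Scr replicate 3, while it lay between -0.057 and 0.081 in the Ant-134 libraries. Scr replicate 3 held the lowest value of the 9 libraries for 6 of the 13 dentate genes, and Ant-134 replicate 5 the highest for 6 of them.

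**Figure D5:**
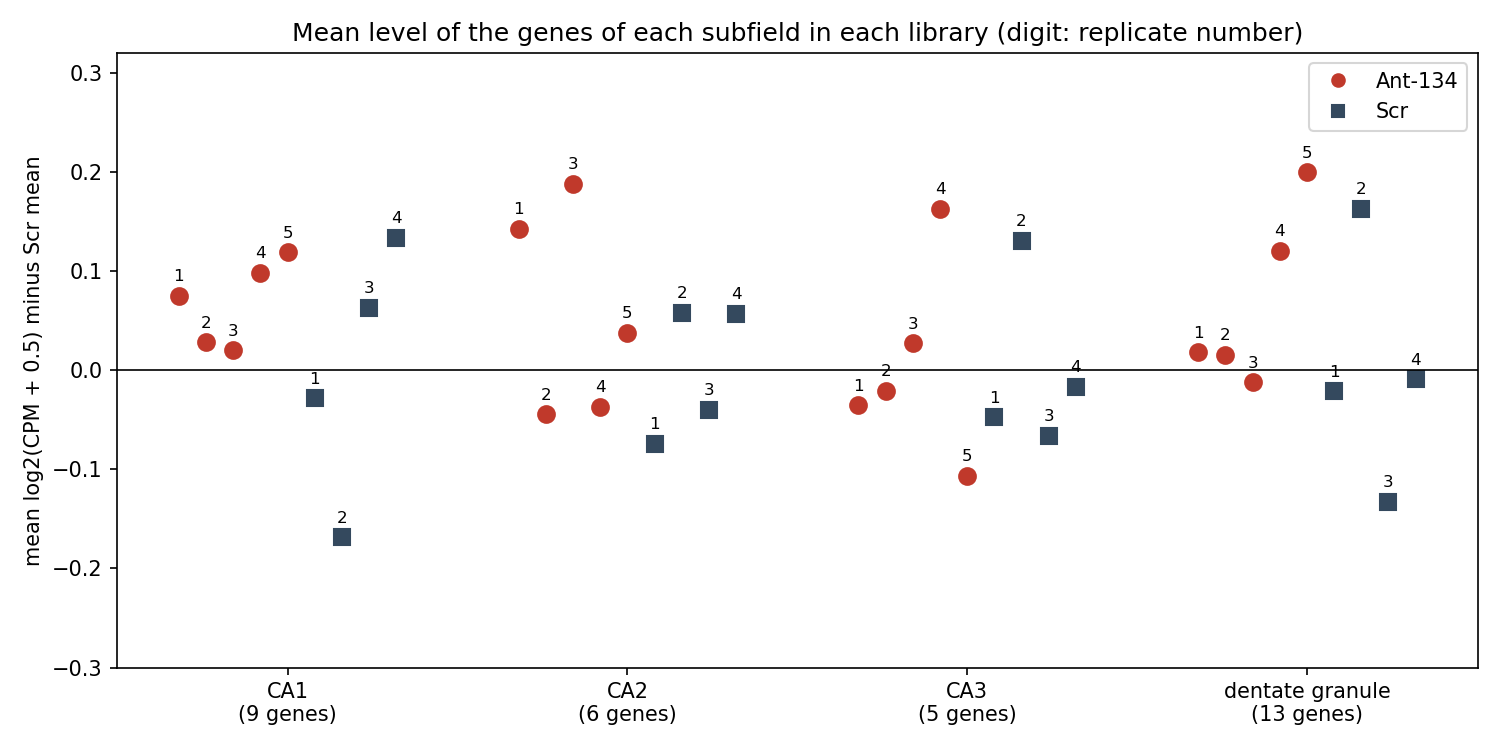
Mean log2(CPM + 0.5) of the genes of CA1, CA2, CA3 and the dentate granule cells in each library, minus the mean over the 4 Scr libraries (circles Ant-134, squares Scr, digit the replicate number). The groups overlap in every layer shown, and Scr replicate 2 is low for CA1 and high for the dentate granule genes.

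For the CA3 genes the level ran from -0.11 in Ant-134 replicate 5 to 0.16 in Ant-134 replicate 4, and the Scr libraries from -0.066 to 0.13. Ant-134 replicate 5 was therefore the lowest library for CA3 and the highest for the dentate granule genes, with a dentate minus CA3 difference of 0.31 against -0.067 to 0.053 in the other 8. For the CA2 genes the level was highest in Ant-134 replicate 3 (0.19) and Ant-134 replicate 1 (0.14), and lowest in Scr replicate 1 (-0.074). In Ant-134 replicate 3 only 3 of the 6, Pcp4, Map3k15 and Rgs14, lay above the Scr mean. That library also had the highest sum of the thalamus genes, and their part in the CA2 level was not tested. For the 4 genes assigned to no single layer, which include Ociad2, the level was 0.065 to 0.26 with Ant-134 and -0.096 to 0.051 with Scr. These 2 ranges did not overlap. The median SD over libraries was 0.14 for single CA1 genes, 0.13 for CA2, 0.18 for CA3 and 0.19 for the dentate genes on the log2 scale. How the plane of each dissection or the share of each layer entered these differences was not tested.

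Further genes of the same layers, not on the list, were read at the unadjusted threshold in edgeR, which 4.18% of all genes passed in either direction, 1.49% as higher and 2.69% as lower. Of 3 CA1, 3 CA2, 4 CA3, 3 dentate granule and 4 mossy cell genes, 0 passed in either direction, and of 5 genes of immature granule cells 0 passed, a count near that share for lists this short. The summed level of the 3 further dentate granule genes ran from 186 to 214 CPM with Ant-134 and 167 to 211 CPM with Scr. It was lowest in Scr replicate 3, as for the dentate genes of the list, and highest in Ant-134 replicate 4. Ant-134 replicate 5, the highest library for the listed dentate genes, had 195 CPM. The summed level of the 3 further CA1 genes was 269 CPM in Scr replicate 2, the lowest library for the listed CA1 genes. That was the highest Scr value, the other Scr libraries having 238 to 261 CPM. The summed level of the 3 further CA2 genes was 33.9 CPM in Ant-134 replicate 3, above the 21.3 to 27.2 CPM of the other libraries. Among the 7 neuronal markers 1 was called higher, and among the lists for interneurons, astrocytes, oligodendrocytes, endothelium, choroid plexus, neocortex, striatum and activity-regulated genes 0 were called. Of the 5 thalamus genes 1 was called higher. Of the 5 microglial genes 3 were called lower, and their median log2 fold change was -0.15. Their summed level ran from 289.7 to 313 CPM with Ant-134 and 322 to 370.2 CPM with Scr, so that these sums did not overlap between the groups, in the direction opposite to that of most principal neuron genes. The part of the microglial level in the values of the principal neuron genes was not tested.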

How the data were processed

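Poly-A-selected RNA of 9 hippocampi was sequenced in paired-end mode. Per the labels and the paper, the authors mapped reads to GRCm38 with HISAT2 2.0.5 and counted them per gene with featureCounts 1.5.0-p3, and they deposited raw counts and FPKM values in 2 tables. Deposited counts were tested with edgeR 4.0.16 (filterByExpr with a minimum count of 10, TMM scaling, robust quasi-likelihood test, no covariate) over 19782 genes, with Benjamini-Hochberg adjustment over all of them, and CPM are TMM-scaled. The unadjusted threshold of 0.05 follows the study's methods. Calls were tested on simulated data beforehand with changes of 0.3, 0.5 and 1 on the log2 scale, each larger than any on the list. Gene length, another deposited column, was used only to check FPKM, which equalled counts per length and total up to 1 factor per library (0.978 to 1.01). With totals of 28583298 to 41978113 counts, 3 counts, taken as the floor of counting error only, correspond to 0.0709 to 0.107 CPM. Chi-square per gene between libraries of a group was 8.30 or more, so none was a duplicate. 3' UTRs came from GENCODE M21 on GRCm38. The genes and lists were chosen with earlier results of these data known. Genes given by library were those with an unadjusted p below 0.05, those whose groups did not overlap, and in each layer the most abundant and the most variable with a mean of at least 1 CPM. Alternatives were DESeq2 1.42.0, its size factors, other filters, no robust estimation, the replicate block, a Y-linked covariate, limma 3.58.1 on FPKM with a pseudocount of 1 or 0.1 on the log2 scale, centring on neuronal markers, leaving out each library, and, after seeing the data, covariates of thalamus, choroid plexus and activity-regulated genes.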

Additional observations from a re-analysis of the deposited data

Results flagged for a closer look

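Each of the 39 genes and each mean level of a layer was examined for a library far from the others of its group, 92 groups in all. Necab2 in Scr replicate 1 was the one found, at 77.1 CPM against 89.5 to 90.6 CPM in the other 3 Scr libraries. Chance alone marks about 1 in 20 groups, which is 4.60 here. Without this library the log2 fold change of Necab2 was -0.039, against 0.017 with all libraries.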

How the results depend on the processing

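No setting brought a gene of the list below 0.05 after adjustment. Of 858 alternative values with a p for the 39 genes, 775 kept direction and side of the threshold, 16 no longer passed it, 26 passed it and 41 changed sign. Relative to the neuronal markers, which gives no p, 37 of 39 kept their sign, and 24 genes kept their sign throughout. The number called higher, 3, was 5 with the thalamus covariate, 1 with limma on log2(FPKM + 1) without a filter and 2 to 6 when single libraries were left out (6 without Ant-134 replicate 2). The number called lower, 0, was 1 with the activity-regulated covariate and 0 to 1 when single libraries were left out (C1ql2 in both, the latter without Ant-134 replicate 5). The shares of all genes called higher or lower in these settings are not given here, so these counts cannot be read against them. When single libraries were left out, the median was 0.033 to 0.13 for the CA1 genes, -0.0090 to 0.077 for CA2, 0.0068 to 0.11 for CA3, 0.016 to 0.15 for the dentate granule genes and 0.042 to 0.10 for all 39. Relative to the neuronal markers the median was 0.066 for CA1, 0.023 for CA2, 0.024 for CA3, 0.039 for the mossy cell genes and 0.045 for the dentate granule genes and for all 39, and with limma on log2(FPKM + 1) it was 0.029 for CA2 and 0.048 for the mossy cell genes. The activity-regulated covariate also gave Amigo2 0.053, C1ql2 -0.21, Coch -0.22, Fibcd1 0.068, Iyd -0.023, Lct 0.028 and Map3k15 0.16, and limma on log2(FPKM + 1) gave Iyd -0.034, Map3k15 0.039, Csf2rb2 0.089 and Tdo2 0.11. Sites restricted to 8 bases left 2 genes. Signs changed with the activity-regulated covariate for Ajap1 -0.018, C1ql3 -0.011, Cpne7 -0.032, Necab2 -0.033, Rgs14 0.026 and Trpc6 -0.022, with the choroid plexus covariate for Ajap1 -0.014, and relative to the neuronal markers for Ajap1 -0.026 and Necab2 -0.015. With single libraries left out, the genes that changed sign ranged as follows: Ajap1 -0.020 to 0.048, Cpne7 -0.027 to 0.13, Iyd -0.29 to 0.12, Maml2 -0.072 to 0.044, Map3k15 -0.052 to 0.18, Mpped1 -0.075 to 0.018, Ndst4 -0.045 to 0.13, Necab2 -0.039 to 0.047, Nov -0.13 to 0.10, Pou3f1 -0.071 to 0.0057, Prox1 -0.043 to 0.15, Rgs14 -0.057 to 0.029, Stxbp6 -0.061 to 0.054 and Trpc6 -0.064 to 0.14. The causes were not tested. Same-numbered mice of the 2 groups did not visibly deviate together (correlations -0.146 to 0.0529 over 4 pairs, and 0 of 4 Scr libraries correlated best with its own number). The other pairs had correlations of -0.284 to 0.293. So few pairs cannot decide whether mice shared a litter or a batch. The paper calls the Scr mice littermates, and the litter of each mouse is not given in the sources used here. With the replicate block on 8 libraries, which also leaves out Ant-134 replicate 5, 6 genes were called higher and 1 lower. The share of all genes called with the block is not given here, so these counts cannot be read against it. Ociad2 and Dsp were among the genes called, Pcp4 was not (unadjusted p = 0.102), and Bhlhe22, Cpne4, Gpr161, Neurod6 and, lower, C1ql2 were added. With the block the median was 0.088 for CA3, 0.047 for the dentate granule genes and 0.030 for the mossy cell genes, and the replicate block gave Ajap1 -0.014, C1ql3 -0.0049, Cpne7 -0.036, Necab2 -0.033, Rgs14 0.025 and Stxbp6 0.00058. Leaving out Ant-134 replicate 5 alone also changed the sign of Ajap1 (-0.014), Cpne7 (-0.027), Necab2 (-0.034) and Rgs14 (0.029), but not of C1ql3 or Stxbp6. The block and the left-out library were not separated. Precision was lowest for Iyd, which had the fewest counts of the list (28 to 74).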
